A study of Mus musculus with 22 samples.

Results

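Mice that drank HMLS, a deep sea water known here by its abbreviation only, while colitis was induced were set against mice with the same colitis on distilled water. The comparison rests on 9 of the 22 colon RNA libraries of the study, 4 of HMLS (replicates 3, 6, 7 and 8) and 5 of DSS (replicates 1, 2, 5, 6 and 7), and the members were taken by group label. HMLS mice had HMLS as drinking water for 3 weeks, and in the last 1 week it carried 5% dextran sulfate sodium (DSS). DSS mice had distilled water for the same 3 weeks, with 5% DSS in the last 1 week. All were wild type BALB/c mice. The sample notes put their age at 5 weeks at the start, and the design text of the series speaks of mice aged 8 weeks for the induction of colitis. The other groups are TM (n = 5), a second deep sea water given with DSS in the same way, and CON (n = 8), distilled water without DSS, and they serve here as levels for orientation. HMLS without DSS is not analysed here, so every HMLS value below comes from DSS-treated colon. Nothing in the labels says that each library is a separate mouse, and p-values measure the spread between these libraries.

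DSS is a sulfated polymer that damages the colonic epithelium and lets luminal bacteria reach the tissue. The epithelium answers with secreted antimicrobial lectins, with hydrogen peroxide from dual oxidases and with nitric oxide from the inducible synthase Nos2, while recruited myeloid cells supply cytokines such as TNF. Goblet cells hold the mucus layer, and absorptive colonocytes burn fatty acids and carry salt and water.

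The 9 libraries held 48089882 to 63193922 reads. Totals did not separate the groups (two-sided exact permutation test over 126 splits, p = 0.897), and at least 1 FPKM (fragments per kilobase of transcript, scaled to the mapped depth) was reached by 12669 ± 178 genes in HMLS and 12757 ± 280 in DSS (SD, exact p = 0.595). The share of mapped reads was 88.8% to 90.5% in HMLS and 82.3% to 88.9% in DSS (exact p = 0.0556, adjusted p = 0.222 over 4 library measures, smallest possible p = 0.00794). DSS replicate 7 had the lowest share. Epithelial markers were high in every library, with Krt8 at 1280.1, 1275, 1324 and 1272 FPKM in HMLS and 1654, 2071, 981, 1349 and 1275 FPKM in DSS, as the labelled tissue would have. Their summed level over 10 markers was 6209.5 to 6719 FPKM in HMLS and 5654 to 8477 FPKM in DSS. In a principal component analysis of the 14 colitis libraries, HMLS replicate 3 and DSS replicate 5 lay together at the far end of the first component, which carried 27.6% of the variance, at scores of 35.1 and 39.4. HMLS libraries spanned -17.1 to 35.1 on it and DSS libraries -25.7 to 39.4. On the second component, with 15.3% of the variance, HMLS libraries lay between -30.8 and 0.461 and DSS libraries between -14.1 and 20.7, so the groups overlapped on both. Since these libraries stand apart within their groups, the range with any 1 of the 9 libraries left out is given for many of the genes below. A gene printed without that range can move as much.

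**Figure D1:**
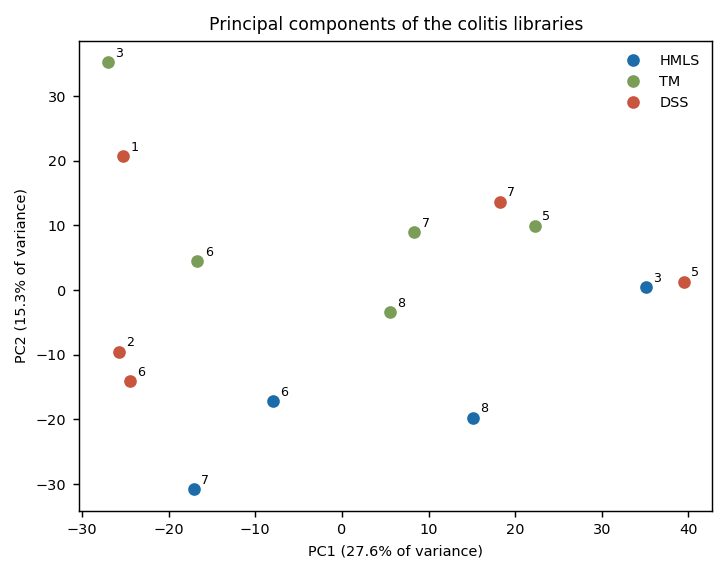
Scores of the 14 colitis libraries on the first and second principal components of log2(FPKM + 1), with replicate numbers beside the points. HMLS replicate 3 and DSS replicate 5 sit together at 35.1 and 39.4 on the first component, and no boundary separates HMLS from DSS on either axis.

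No gene passed the test between HMLS and DSS. Values were compared as log2(FPKM + 1) with limma, and 0 of 13341 genes (0%) had a Benjamini-Hochberg adjusted p under 0.05, the smallest being 0.849. An unadjusted p under 0.05 was reached by 740 genes (5.55% of those tested), 393 higher in HMLS (2.95%) and 347 lower (2.6%). The counts at that level in the gene lists below stand against these shares. Every HMLS library lay above every DSS library for 75 genes (0.562%) and below for 81 (0.607%), together 1.17%. After quantile normalization that split was 98 above and 61 below, and after median-of-ratios scaling 87 and 67. The log2 difference, HMLS minus DSS, was at least 1 for 23 genes (0.172%) and at most -1 for 54 (0.405%), and its median over all genes was -0.001. Since none passed, the values below describe these libraries, with standard errors and 95% intervals from the fit. The intervals are for single genes, without correction for the number of genes tested. Many genes were named for a small p, so an interval away from 0 adds nothing to that p. Libraries are listed in the order of their replicate numbers. The median of a gene list is followed in brackets by its range over up to 19 other settings, which are 10 other ways of fitting and each of the 9 libraries left out. Among those fits is a replicate block, with a term for each replicate number. Numbers 1 and 2 occur in DSS only among the fitted groups, so that block gives DSS replicates 1 and 2 no weight.

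**Figure D2:**
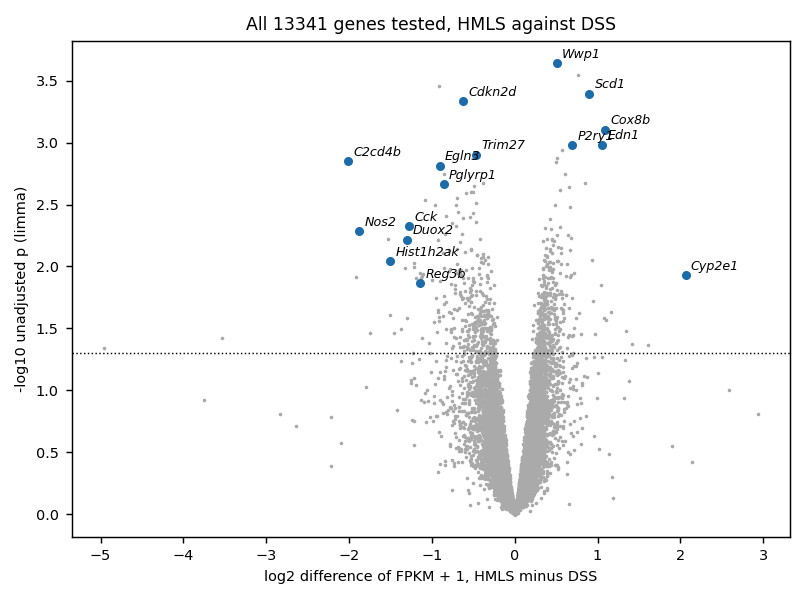
Each point is 1 of the 13341 genes tested, by its log2 difference of FPKM + 1 (HMLS minus DSS, horizontal) and the -log10 of its unadjusted limma p (vertical), with the dotted line at an unadjusted p of 0.05. Wwp1 stands highest at a log2 difference of 0.51, and no gene passed after adjustment.

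Genes that make reactive oxygen and nitrogen for epithelial defence had lower means in HMLS than in DSS, Nos2, Duox2 and Duox1 with uncorrected intervals below 0. Nos2, the inducible nitric oxide synthase at chr11:78920787-78960226, was at 0.911, 1.85, 1.25 and 0.891 FPKM in HMLS and 12.6, 7.41, 1.26, 4.94 and 21.3 FPKM in DSS. DSS replicate 5 lay among the HMLS libraries, the other 4 DSS libraries were higher than all of them, and CON averaged 0.7899 ± 0.516 FPKM (SD, n = 8). Nos2 had a log2 difference of -1.88 ± 0.572 (SE; 95% interval -3.10 to -0.66), -2.34 to -1.51 with any 1 library left out. Duox2, which makes hydrogen peroxide at the apical membrane of epithelial cells, was at 30.04, 40.1, 21.2 and 41.9 FPKM in HMLS and 145, 75.1, 35.5, 51.9 and 169 FPKM in DSS. Only DSS replicate 5 fell within the HMLS range, and CON averaged 30.5 ± 15.1 FPKM (SD, n = 8). Its log2 difference was -1.30 ± 0.406 (SE; 95% interval -2.17 to -0.43; -1.59 to -1.04 with 1 library left out). Its maturation factor Duoxa2 was at 6.99, 17.9, 4.56 and 11.4 FPKM in HMLS and 54.3, 17.02, 6.504, 15.2 and 62.8 FPKM in DSS. Here DSS replicates 1 and 7 stood above all other libraries and the remaining 3 lay inside the HMLS range. Duoxa2 had a log2 difference of -1.24 ± 0.608 (SE; 95% interval -2.54 to 0.06; -1.66 to -0.88 with 1 library left out).

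Duox2 and Duoxa2 are neighbours on chromosome 2 that are read in opposite directions. Their promoter windows are shown because both genes were highest in the same 2 DSS libraries. The windows are those of RefSeq on GRCm38.p6, from 250 bases before to 50 bases after the annotated start, read 5′ to 3′ on the strand of the gene. That of Duox2 is chr2:122298178-122298477 on the minus strand and that of Duoxa2 chr2:122298650-122298949 on the plus strand, and their starts lie 673 bases apart. Capitals mark TATAAA, which begins 30 bases before the start of Duoxa2 and is not in the Duox2 window on either strand. TATAAA or its reverse complement TTTATA is in 4473 of 32851 such windows (13.6%).
Duox2: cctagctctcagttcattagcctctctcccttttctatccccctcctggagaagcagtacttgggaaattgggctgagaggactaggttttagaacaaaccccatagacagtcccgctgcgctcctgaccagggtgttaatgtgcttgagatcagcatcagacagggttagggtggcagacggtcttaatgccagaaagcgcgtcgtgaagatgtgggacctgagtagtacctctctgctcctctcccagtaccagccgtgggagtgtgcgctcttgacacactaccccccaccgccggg
Duoxa2: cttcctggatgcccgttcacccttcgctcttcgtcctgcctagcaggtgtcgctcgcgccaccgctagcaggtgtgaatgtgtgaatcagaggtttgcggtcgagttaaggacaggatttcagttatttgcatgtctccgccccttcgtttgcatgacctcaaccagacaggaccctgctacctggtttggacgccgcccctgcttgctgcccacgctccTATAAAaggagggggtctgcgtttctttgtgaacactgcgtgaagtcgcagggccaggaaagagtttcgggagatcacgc

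Duox1, the second dual oxidase, was lower in level, at 0.832, 0.605, 0.524 and 0.869 FPKM in HMLS and 2.497, 1.297, 1.001, 1.002 and 2.58 FPKM in DSS. It was the 1 member of this list whose groups did not overlap, with a log2 difference of -0.60 ± 0.221 (SE). Of the 12 tested genes for epithelial and phagocyte oxidases, their partners and Nos2, all 12 had a log2 difference below 0, 3 of them with an unadjusted p under 0.05, and their median was -0.36 (-0.50 to -0.21). Over all genes tested, 49.8% had a difference above 0. Members of a list are read in the same 9 libraries and are not independent of each other. DSS replicate 7, with the lowest share of mapped reads, was also the highest library for Nos2, Duox2 and Duoxa2. With that share as a covariate the log2 differences were -0.91 for Nos2, -0.77 for Duox2 and -0.37 for Duoxa2.

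**Figure D3:**
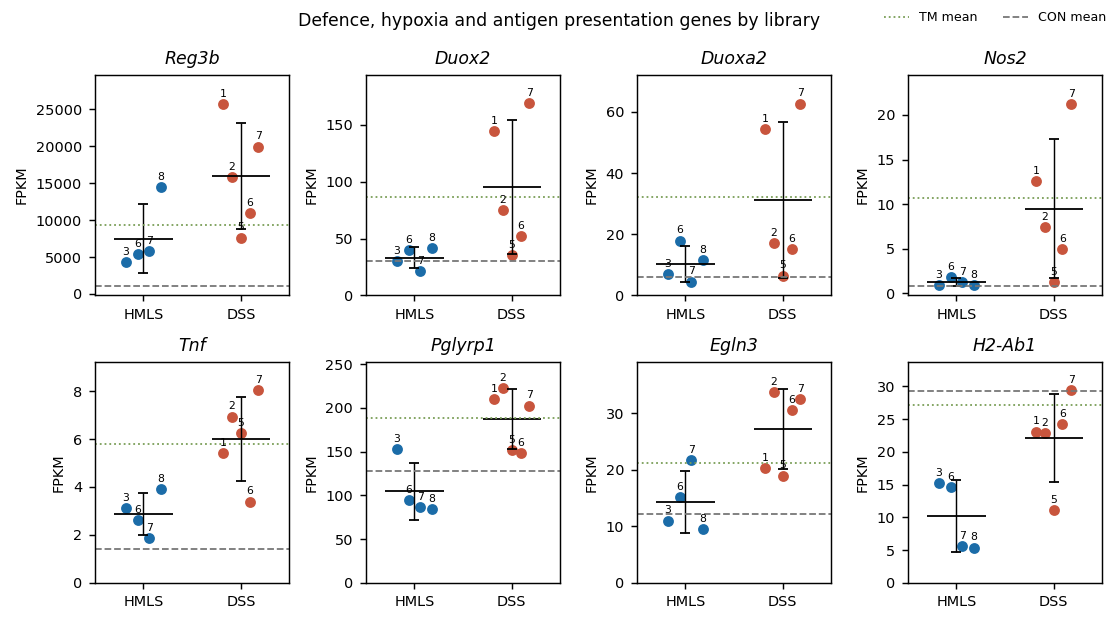
FPKM of 8 genes in each HMLS library (blue) and DSS library (red), with replicate numbers, the group mean (bar) and SD (whiskers). Dotted and dashed lines are the TM and CON means, and for Nos2 the 4 HMLS libraries lie at 0.891 to 1.85 FPKM against 1.26 to 21.3 FPKM in DSS.

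Secreted antimicrobial proteins were the list with the lowest median. Of 23 tested members 22 had a log2 difference below 0, 2 of them with an unadjusted p under 0.05, and the median was -0.66 (-0.83 to -0.43). The summed level of the list was 18600.4 to 32073 FPKM in HMLS and 20922 to 49849.5 FPKM in DSS, against 9627 to 15771 FPKM in CON, so every HMLS sum stayed above all CON sums. Such a sum is weighted towards the most abundant members. The mean of log2(FPKM + 1) over tested members overlapped, at 4.79 to 5.96 in HMLS and 4.62 to 5.96 in CON. Reg3b, a C-type lectin that binds bacterial cell walls, was at 4362, 5384, 5787 and 14454 FPKM in HMLS and 25761, 15827, 7637, 10982 and 19958 FPKM in DSS. Replicates 3, 6 and 7 of HMLS lay below every DSS library, while HMLS replicate 8 lay among them. Its log2 difference ran from -1.51 without HMLS replicate 8 to -0.94 without HMLS replicate 3. Reg3g, a related lectin active on Gram-positive bacteria, was at 272, 859, 776 and 2478 FPKM in HMLS and 7054, 1959, 636, 1308 and 3797 FPKM in DSS, with a log2 difference of -1.38 ± 0.668 (SE; 95% interval -2.81 to 0.05; -1.91 to -0.85 with 1 library left out). Its groups overlapped, with HMLS replicate 8 above DSS replicates 2, 5 and 6.

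Pglyrp1, a peptidoglycan recognition protein that kills bacteria, was the member with the smallest p. It was at 152, 94.9, 86.6 and 84.3 FPKM in HMLS and 210.2, 222, 152, 149 and 203 FPKM in DSS. HMLS replicates 6, 7 and 8 lay below every DSS library and below the CON mean of 128 ± 20.95 FPKM (SD, n = 8). For Pglyrp1 the log2 difference was -0.86 ± 0.232 (SE; 95% interval -1.35 to -0.36; -1.05 to -0.77 with 1 library left out). Dmbt1, a scavenger receptor-like mucosal protein, was at 2808, 3417, 2755 and 3008 FPKM in HMLS and 4002, 4367, 2910.3, 3352 and 3821 FPKM in DSS, with DSS replicates 5 and 6 inside the HMLS range. The siderophore-binding protein Lcn2 was at 13.02, 7.31, 0.1804 and 5.13 FPKM in HMLS and 17.9, 1.397, 15.8, 2.12 and 127 FPKM in DSS, so 1 library, DSS replicate 7, carried its mean. Without that library the log2 difference of Lcn2 was -0.37, against -1.21 ± 1.07 (SE) with it, and it was -1.81 without DSS replicate 2. The acute-phase gene Saa3 was at 31.3, 115, 13.2 and 25.9 FPKM in HMLS and 74.3, 56.3, 24.4, 50.7 and 212 FPKM in DSS, and its range in HMLS contained 4 of the 5 DSS libraries. With 1 library left out its log2 difference ran from -1.50 to -0.49.

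Most cytokine genes were low in level, and 18 of the 34 listed were tested. The most abundant, Il18, averaged 73.0 FPKM in HMLS and 73.8 FPKM in DSS. Tested members differed from gene to gene. Of 18 tested members of the list of proinflammatory cytokines, chemokines and Ptgs2, 13 had a log2 difference below 0 and 5 above, with 1 unadjusted p under 0.05 in each direction and a median of -0.15 (-0.55 to 0.08), above 0 without DSS replicate 7 and with the share of mapped reads as covariate. Tnf, the cytokine that starts much of the inflammatory response, was at 3.11, 2.63, 1.85 and 3.93 FPKM in HMLS and 5.41, 6.94, 6.26, 3.39 and 8.06 FPKM in DSS. The groups overlapped at 1 point, HMLS replicate 8 above DSS replicate 6, and CON averaged 1.41 ± 0.509 FPKM (SD, n = 8). For Tnf it was -0.84 ± 0.259 on the log2 scale (SE; 95% interval -1.39 to -0.29; -1.0 to -0.70 with 1 library left out). Its promoter window is shown as that of the cytokine with the smallest p among those lower in HMLS. It lies at chr17:35201958-35202257 on the minus strand of GRCm38.p6 (RefSeq), and capitals mark TATAAA, 29 bases before the start.
Tnf: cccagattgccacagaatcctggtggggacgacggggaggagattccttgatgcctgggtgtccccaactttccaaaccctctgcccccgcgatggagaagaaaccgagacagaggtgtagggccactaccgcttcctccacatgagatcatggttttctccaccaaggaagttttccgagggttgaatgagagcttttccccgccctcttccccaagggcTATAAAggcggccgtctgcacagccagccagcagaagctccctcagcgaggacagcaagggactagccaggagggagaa

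Ccl20, which draws dendritic cells and lymphocytes to the epithelium, differed the other way, at 4.52, 19.00, 5.39 and 5.900 FPKM in HMLS and 2.16, 1.78, 5.95, 2.701 and 2.201 FPKM in DSS. HMLS replicate 6 was far above all others, and the log2 difference was 1.16 ± 0.4596 (SE), or 0.74 without that library. The mean of Ccl20 in TM, 8.53 FPKM, was near that in HMLS, 8.70 FPKM, against 2.96 FPKM in DSS. The monocyte chemokine Ccl2 was listed at 0 in HMLS replicates 3, 6 and 7, at 0.519 FPKM in HMLS replicate 8, and at 0.7398, 0, 0.224, 1.13 and 4.09 FPKM in DSS. Il1b, a cytokine of myeloid cells, was at 1.54, 2.902, 0.439 and 0.822 FPKM in HMLS and 1.48, 0.616, 0.611, 0.809 and 9.17 FPKM in DSS, and the direction of its log2 difference turned when DSS replicate 7 was left out (-0.20 ± 0.597 with SE for all libraries, 0.29 without it). Lif, a cytokine of the interleukin-6 family, was at 0.7996, 0.944, 0.352 and 0.992 FPKM in HMLS and 1.63, 0.871, 1.43, 0.7003 and 2.203 FPKM in DSS.

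Target genes and subunits of NF-kappaB, the transcription factor downstream of TNF, were mostly on the low side. Of 25 tested, 19 had a log2 difference below 0, with 2 at an unadjusted p under 0.05 and a median of -0.18 (-0.24 to 0.01), above 0 with the share of mapped reads as covariate. Over all genes tested, 2.6% were lower at that p, so 2 of 25 is a small number to read. Nfkb2, the precursor of the p52 subunit, was at 19.01, 18.4, 16.1 and 15.5 FPKM in HMLS and 21.6, 28.99, 23.1, 20.5 and 23.4 FPKM in DSS. Its groups did not overlap, and the log2 difference was -0.42 ± 0.172 (SE). Bcl3, a nuclear cofactor of p50 and p52, was at 7.03, 8.62, 7.398 and 4.01 FPKM in HMLS and 18.1, 16.4, 6.59, 14.4 and 13.5 FPKM in DSS, with DSS replicate 5 within the HMLS range and a log2 difference of -0.90 ± 0.3196 (SE). Ier3, an early target gene, was at 14.7, 10.6, 8.17 and 18.3 FPKM in HMLS and 14.9, 14.1, 31.7, 13.9 and 61.5 FPKM in DSS.

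Immediate early genes, which follow growth factor and stress signals within minutes, gave 14 of 16 tested members below 0, 3 with an unadjusted p under 0.05, and a median of -0.39 (-0.67 to 0.01). Dusp1, a phosphatase that switches off MAP kinases, was at 25.2, 22.5, 20.9 and 31.4 FPKM in HMLS and 23.04, 46.6, 35.95, 39.6 and 79.5 FPKM in DSS, and DSS replicate 1 lay within the HMLS range. Jund, a subunit of AP-1, was at 75.01, 63.2, 62.6 and 87.4 FPKM in HMLS and 79.2, 131, 93.5, 91.6 and 84.3 FPKM in DSS, with log2 difference -0.40 ± 0.147 (SE). Nr4a1, an orphan nuclear receptor, was at 2.22, 5.73, 2.14 and 4.17 FPKM in HMLS and 4.904, 8.48, 4.88, 4.49 and 9.52 FPKM in DSS. The median of this list was above 0 when the share of mapped reads was a covariate.

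Genes for MHC class II, which presents antigen to helper T cells, had 10 of 11 tested members below 0, 4 with an unadjusted p under 0.05, and a median of -0.56 (-0.80 to -0.43). Their summed level averaged 295 FPKM in HMLS, 385 FPKM in DSS and 476 FPKM in CON. The HMLS mean thus lay further from CON than the DSS mean did. H2-Ab1, a chain of the I-A molecule, was at 15.2, 14.7, 5.599 and 5.37 FPKM in HMLS and 23.1, 22.8, 11.1, 24.2 and 29.4 FPKM in DSS. Replicates 7 and 8 of HMLS were lowest, and DSS replicate 5 lay within the HMLS range at about the level of the HMLS mean. H2-Ab1 had a log2 difference of -1.12 ± 0.391 (SE; 95% interval -1.96 to -0.29; -1.35 to -0.90 with 1 library left out). H2-Eb1, a chain of the I-E molecule, was at 9.96, 8.13, 4.06 and 5.798 FPKM in HMLS and 16.7, 12.3, 10.9, 10.6 and 14.98 FPKM in DSS, with no overlap and a log2 difference of -0.86 ± 0.3300 (SE). H2-Aa gave -0.83 ± 0.351 (SE) and Cd74, the invariant chain, -1.04 ± 0.463 (SE), and for both genes DSS replicate 5 lay within the HMLS range. In bulk tissue, fewer cells of a type and less RNA per cell cannot be told apart.

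Markers of the cells that carry these molecules were measured beside them. Of 11 tested macrophage and dendritic cell markers 10 were below 0, with a median of -0.31 (-0.55 to -0.21). Their summed level was 53.98 to 122 FPKM in HMLS and 78.1 to 128 FPKM in DSS. In TM it was 152 to 222 FPKM and in CON 92.5 to 209 FPKM. The complement component C1qb, made by tissue macrophages, was at 10.3, 5.56, 1.202 and 3.64 FPKM in HMLS and 12.7, 6.37, 9.25, 5.61 and 13.1 FPKM in DSS, and C1qa at 19.5, 10.4, 5.196 and 5.93 FPKM in HMLS and 19.8, 12.4, 20.6, 10.1 and 18.98 FPKM in DSS. HMLS replicate 3 was the highest HMLS library for both and lay inside the DSS range. Lymphoid genes were low. Cd52, a surface glycoprotein of lymphocytes and other leukocytes, was at 6.13, 1.97, 4.95 and 4.34 FPKM in HMLS and 8.96, 10.7, 8.28, 10.4 and 11.03 FPKM in DSS (log2 difference -1.09 ± 0.305, SE), and Ltb, lymphotoxin beta, at 2.27, 3.14, 2.02 and 1.44 FPKM in HMLS and 4.298, 5.14, 4.61, 3.96 and 4.42 FPKM in DSS (log2 difference -0.79 ± 0.255, SE). In both genes every HMLS library lay below every DSS library. All 6 tested B cell markers and all 7 tested T cell markers had differences below 0, with medians of -0.20 (-0.49 to 0.16, above 0 with a replicate block and without DSS replicate 2) and -0.25 (-0.52 to -0.18), and none of these 13 had an unadjusted p under 0.05. The summed T cell markers were 8.703 to 13.3 FPKM in HMLS, 9.69 to 21.7 FPKM in DSS and 10.1 to 19.6 FPKM in CON. Summed B cell markers were 0.842 to 7.58 FPKM in HMLS, 3.27 to 17.1 FPKM in DSS and 5.25 to 67.8 FPKM in CON. The part of these cells in the antigen presentation values was not tested.

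Neutrophil genes overlapped between HMLS and DSS. S100a8, a subunit of calprotectin, was at 8.32, 8.33, 1.34 and 5.798 FPKM in HMLS and 4.05, 1.63, 9.39, 1.403 and 34.9 FPKM in DSS, and its log2 difference was -0.10 ± 0.898 (SE; 95% interval -2.03 to 1.83), or 0.52 without DSS replicate 7. The other subunit, S100a9, was at 5.16, 10.6, 0 and 1.23 FPKM in HMLS and 4.25, 2.84, 8.23, 0.635 and 22.6 FPKM in DSS. With 1 library left out its log2 difference ran from -1.30 to -0.13. Of 12 neutrophil markers 11 were in the table and 4 tested. The summed markers spanned 4.51 to 26.2 FPKM in HMLS and 4.03 to 82.6 FPKM in DSS, against 2.53 to 4.35 FPKM in CON.

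Goblet cell genes, which build the mucus layer, had lower mean log2 levels in HMLS than in DSS for all but 1 member. Of 28 tested goblet cell genes 27 had a log2 difference below 0, 7 of them with an unadjusted p under 0.05, and the median was -0.46 (-0.73 to -0.17), nearest to 0 with a replicate block. Their summed level was 9925 to 14914 FPKM in HMLS and 13283 to 22919.9 FPKM in DSS, against 15375 to 22114 FPKM in CON. Muc2, the gel-forming mucin of the colon, was at 3935, 1140.2, 2717 and 2829 FPKM in HMLS and 5647, 6008, 6368, 2118 and 3186 FPKM in DSS. HMLS replicate 6 was lowest, DSS replicates 6 and 7 lay among the HMLS libraries, and the log2 difference was -0.82 ± 0.399 (SE; 95% interval -1.68 to 0.03; -1.08 to -0.46 with 1 library left out). Spdef, the transcription factor of goblet cell maturation, was at 26.1, 35.1, 40.9 and 38.4 FPKM in HMLS and 66.00, 104, 66.8, 46.5 and 38.5 FPKM in DSS, with only DSS replicate 7 in the HMLS range and a log2 difference of -0.79 ± 0.272 (SE). The cargo receptor Tmed3 gave -0.50 ± 0.177 (SE), the mucin glycosyltransferase Galnt12 -0.42 ± 0.1696 (SE) and Bcas1, a gene on the goblet list, -0.45 ± 0.192 (SE; -0.61 to -0.29 with 1 library left out). Tff3, the trefoil peptide secreted with mucus, was at 1186, 1229, 1164 and 849.6 FPKM in HMLS and 2053, 2248, 947, 1559 and 1299 FPKM in DSS, where DSS replicate 5 was among the HMLS values.

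Enteroendocrine markers were below 0 in all 10 tested members, 1 of them with an unadjusted p under 0.05, with a median of -0.45 (-0.98 to -0.06, nearest to 0 with a replicate block). The hormone gene Cck was at 1.64, 1.05, 2.26 and 1.63 FPKM in HMLS and 6.45, 12.1, 5.45, 1.61 and 5.14 FPKM in DSS, so that only DSS replicate 6 lay in the HMLS range. Its log2 difference was -1.28 ± 0.384 (SE; 95% interval -2.10 to -0.46; -1.60 to -1.01 with 1 library left out). Pyy, which encodes peptide YY, was at 58.9, 19.7, 36.7 and 33.1 FPKM in HMLS and 86.1, 178, 74.3, 38.1 and 23.00 FPKM in DSS, with DSS replicate 2 far above the rest. Gcg, which encodes proglucagon, gave -0.66 ± 0.484 (SE; -1.16 to -0.34 with 1 library left out) and Insl5, a relaxin family hormone, -0.81 ± 0.527 (SE; -1.12 to -0.33). Both turned direction under a replicate block, to 0.19 and 0.30.

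Genes induced by low oxygen and genes of glycolysis had 31 of 38 tested members below 0, 9 with an unadjusted p under 0.05 and 3 with groups apart, and a median of -0.31 (-0.34 to -0.22). Their summed level was 3079 to 3608 FPKM in HMLS and 3489 to 4650.3 FPKM in DSS. Egln3, an oxygen sensor that hydroxylates hypoxia-inducible factor and is itself induced by it, was at 10.98, 15.2, 21.7 and 9.46 FPKM in HMLS and 20.2, 33.7, 18.98, 30.6 and 32.6 FPKM in DSS. HMLS replicate 7 lay above DSS replicates 1 and 5, and the other HMLS libraries lay below every DSS library, around the CON mean of 12.2 ± 3.79 FPKM (SD, n = 8). Egln3 had a log2 difference of -0.91 ± 0.234 (SE; 95% interval -1.40 to -0.41; -1.12 to -0.74 with 1 library left out). The Egln3 window is shown because the gene is a target of that factor, whose core motif is ACGTG. It lies at chr12:54203825-54204124 on the minus strand of GRCm38.p6 (RefSeq), and capitals mark the single ACGTG, which begins 229 bases before the start. ACGTG or its reverse complement CACGT is in 6447 of 32851 windows (19.6%), and a CACGTG holds both.
Egln3: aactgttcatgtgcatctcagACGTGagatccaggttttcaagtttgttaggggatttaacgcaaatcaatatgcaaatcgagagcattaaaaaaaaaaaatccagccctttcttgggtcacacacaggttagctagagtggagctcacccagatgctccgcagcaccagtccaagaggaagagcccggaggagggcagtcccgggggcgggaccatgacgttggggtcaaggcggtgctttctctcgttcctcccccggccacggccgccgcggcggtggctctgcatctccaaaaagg

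Slc16a3, the exporter of lactate, was at 1.54, 3.07, 2.12 and 0.8800 FPKM in HMLS and 10.7, 10.4, 1.55, 7.34 and 10.8 FPKM in DSS. DSS replicate 5 lay within the HMLS range, far below the other DSS libraries, and the log2 difference was -1.53 ± 0.475 (SE; 95% interval -2.54 to -0.51), or -1.94 without that library. The hypoxia-induced carbonic anhydrase Car9 was at 31.6, 29.6, 30.6 and 19.98 FPKM in HMLS and 36.3, 52.99, 32.5, 37.7 and 35.4 FPKM in DSS, and P4ha2, a collagen prolyl hydroxylase, at 2.24, 2.49, 2.500 and 2.58 FPKM in HMLS and 2.895, 3.99, 3.99, 3.51 and 2.98 FPKM in DSS. In both genes all 4 HMLS libraries lay below all 5 DSS libraries, with log2 differences of -0.47 ± 0.174 and -0.37 ± 0.144 (SE).

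Genes of the absorptive surface stood on both sides of their DSS level in HMLS. Of 28 tested colonocyte genes 17 were above 0 and 11 below, none with an unadjusted p under 0.05, and the median was 0.04 (-0.04 to 0.16). Slc26a3, the chloride and bicarbonate exchanger, was at 65.9, 497, 165 and 91.7 FPKM in HMLS and 67.9, 91.6, 65.5, 180.4 and 97.5 FPKM in DSS. HMLS replicate 6 alone was high, and the log2 difference of 0.67 ± 0.483 (SE) was 0.09 without it. The same library held the highest level of the water channel Aqp8, at 11.2, 469, 75.7 and 10.4 FPKM in HMLS and 61.6, 114, 15.00, 174 and 36.3 FPKM in DSS, of the phosphate carrier Slc20a1, at 27.9, 241, 47.6 and 37.8 FPKM in HMLS and 16.9, 30.8, 23.1, 61.2 and 22.96 FPKM in DSS, and of the magnesium channel Trpm6. For Aqp8 the log2 difference was -0.33 ± 1.06 (SE), or -1.44 without it, and above 0 without HMLS replicate 3, HMLS replicate 8 or DSS replicate 6, at most 0.35. Car1, the carbonic anhydrase of surface colonocytes, was at 3972, 6987, 5695 and 5020.4 FPKM in HMLS and 1948, 4817, 3129.5, 6185 and 3220.5 FPKM in DSS, with a log2 difference of 0.57 ± 0.301 (SE; 95% interval -0.07 to 1.21; 0.35 to 0.77 with 1 library left out).

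Deep sea water is rich in minerals, so the genes for ion transport were read as lists. Of 16 magnesium channels and transporters 9 were above 0 and 7 below, with 1 unadjusted p under 0.05, that of the carrier Slc41a2 (-0.58 ± 0.258, SE; -0.74 to -0.36 with 1 library left out), and a median of 0.02 (-0.05 to 0.06). Trpm6 was at 13.4, 43.2, 22.01 and 10.6 FPKM in HMLS and 12.8, 17.4, 10.4, 14.5 and 19.5 FPKM in DSS, and its log2 difference was 0.38 ± 0.345 (SE; 95% interval -0.36 to 1.12), or 0.01 without HMLS replicate 6. Its relative Trpm7 gave 0.31 ± 0.147 (SE; 95% interval -0.002 to 0.63) and the carrier Nipa2 0.30 ± 0.144 (SE; 95% interval -0.01 to 0.61; 0.20 to 0.47 with 1 library left out). Sodium absorption genes under aldosterone control split 7 above and 12 below 0, none with an unadjusted p under 0.05, and the sodium channel subunit Scnn1b was at 11.6, 6.22, 3.07 and 8.62 FPKM in HMLS and 11.1, 5.72, 10.7, 3.197 and 7.904 FPKM in DSS. Among 13 calcium genes 8 were above 0, and the sodium-calcium exchanger Slc8a1 was at 26.6, 29.8, 42.6 and 33.98 FPKM in HMLS and 23.5, 30.2, 25.7, 24.1 and 20.9 FPKM in DSS. Atp2b1, a calcium pump of the plasma membrane, gave 0.51 ± 0.247 (SE; 0.34 to 0.65 with 1 library left out), and Orai1, the pore of store-operated calcium entry, -0.31 ± 0.138 (SE), the 1 lower member with an unadjusted p under 0.05. Of 15 metallothioneins and zinc transporters, Mt3 was at 3.35, 2.94, 3.15 and 2.72 FPKM in HMLS and 5.92, 8.501, 4.85, 4.65 and 3.86 FPKM in DSS and the zinc importer Slc39a1 at 78.3, 81.9, 82.6 and 84.3 FPKM in HMLS and 120.2, 105, 93.4, 88.6 and 109 FPKM in DSS, both with every HMLS library below every DSS library. Mt1, by contrast, was at 1128, 596, 286 and 1123 FPKM in HMLS and 364, 309, 1140.2, 525 and 807 FPKM in DSS, an overlap over nearly the whole of both ranges.

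Junction genes split 17 above and 11 below 0 of 28 tested, with a median of 0.04 (-0.02 to 0.08). Occludin, Ocln, was at 64.3, 75.4, 92.7 and 109 FPKM in HMLS and 51.4, 74.7, 67.7, 60.9 and 60.03 FPKM in DSS (log2 difference 0.42 ± 0.169, SE). The pore-forming claudin Cldn2 was at 24.8, 15.7, 19.9 and 36.4 FPKM in HMLS and 44.9, 62.7, 44.8, 26.7 and 21.1 FPKM in DSS (log2 difference -0.67 ± 0.299, SE), and Cldn4, a sealing claudin, at 166, 68.3, 85.4 and 179 FPKM in HMLS and 65.4, 84.8, 119.6, 56.03 and 85.5 FPKM in DSS. HMLS replicates 3 and 8 held the 2 highest Cldn4 levels, and the other HMLS libraries lay inside the DSS range. Of 19 stem cell and Wnt target genes 8 were above and 11 below 0, none with an unadjusted p under 0.05. The stem cell receptor Lgr5 did not pass the filter, at 0.118, 0.179, 0.383 and 0.456 FPKM in HMLS and 0.264, 0.0996, 0.103, 0.3000 and 0.0409 FPKM in DSS against 2.08 ± 0.478 FPKM in CON (SD, n = 8). Of 30 tested genes of DNA replication and mitosis 29 were below 0, 1 with an unadjusted p under 0.05, with a median of -0.31 (-0.71 to -0.07, nearest to 0 without DSS replicate 1). That member was Cdkn2d, an inhibitor of cyclin D kinases, at 4.15, 5.22, 5.93 and 4.401 FPKM in HMLS and 7.61, 9.87, 8.09, 7.22 and 7.86 FPKM in DSS. Its groups did not overlap (log2 difference -0.63 ± 0.1403, SE; -0.70 to -0.56 with 1 library left out), and its known role is to hold cells back from division, unlike most of the list. Birc5, a protein of dividing cells, was at 1.398, 2.06, 7.199 and 8.805 FPKM in HMLS and 19.3, 5.599, 3.73, 10.95 and 4.24 FPKM in DSS.

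**Figure D4:**
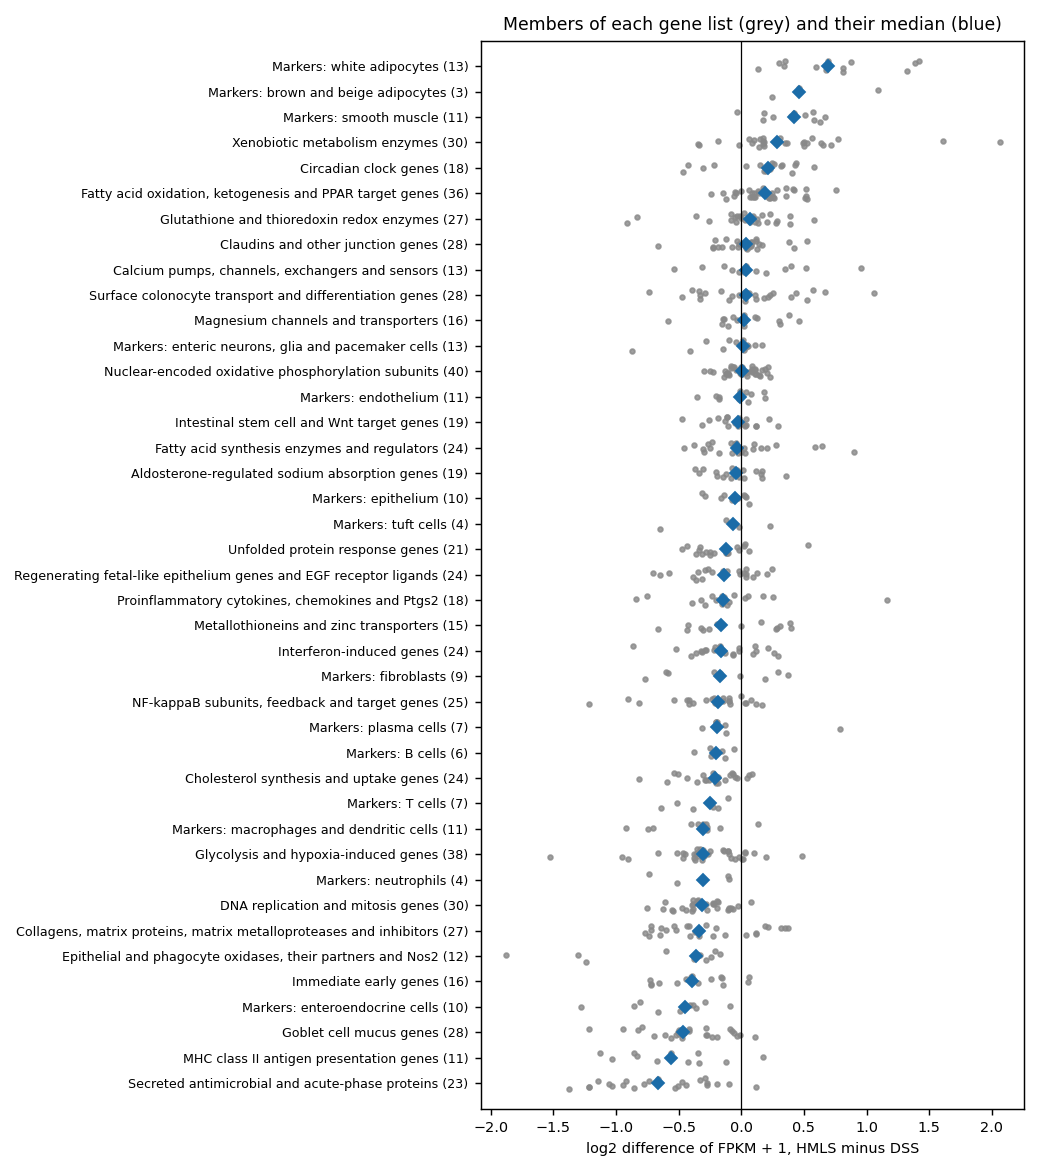
Log2 difference of FPKM + 1 (HMLS minus DSS, horizontal) of each tested member of 41 gene lists with at least 3 tested members (grey points, number of members in brackets) and the median of each list (blue diamond). Medians run from -0.66 for secreted antimicrobial proteins to 0.69 for white adipocyte markers, which was 0.29 without HMLS replicate 6.

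Genes of fatty acid oxidation lay mostly above their DSS level in HMLS. Of 36 tested genes for fatty acid oxidation, ketogenesis and PPAR targets 30 were above 0, 3 with an unadjusted p under 0.05, and the median was 0.19 (0.12 to 0.26). TM stood near HMLS, with summed levels averaging 3711 FPKM in HMLS, 3599 FPKM in TM and 3102 FPKM in DSS. Hadhb, a subunit of the mitochondrial trifunctional protein, was at 198, 256, 256 and 181 FPKM in HMLS and 151, 172, 173, 188 and 142 FPKM in DSS. HMLS replicate 8 alone lay within the DSS range, and the log2 difference was 0.42 ± 0.136 (SE; 95% interval 0.13 to 0.71). Ehhadh, a peroxisomal enzyme of fatty acid oxidation, gave 0.51 ± 0.205 (SE; 0.34 to 0.61 with 1 library left out). Nuclear-encoded subunits of oxidative phosphorylation split 22 above and 18 below 0 of 40, with a median of 0.01 (-0.09 to 0.13) and no unadjusted p under 0.05.

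Scd1, the desaturase that makes monounsaturated fatty acids, was at 8.19, 21.6, 15.3 and 14.2 FPKM in HMLS and 5.598, 7.26, 7.82, 7.88 and 7.13 FPKM in DSS. HMLS replicate 3 lay just above the highest DSS library and the other HMLS libraries well above it, while CON averaged 64.1 ± 58.02 FPKM (SD, n = 8). For Scd1 the log2 difference was 0.90 ± 0.198 (SE; 95% interval 0.48 to 1.32). Without HMLS replicate 3 it was 1.14, the 1 call between HMLS and DSS among all settings tried (limma, adjusted p = 0.0459). Gpam, which starts glycerolipid synthesis, was at 15.5, 24.6, 16.1 and 16.7 FPKM in HMLS and 11.1, 10.2, 17.8, 8.66 and 9.73 FPKM in DSS. The whole list of fatty acid synthesis, these genes included, split 10 above and 14 below 0 of 24, and the fatty acid elongase Elovl1 gave -0.38 ± 0.162 (SE; -0.48 to -0.25 with 1 library left out). Cholesterol synthesis and uptake genes had 21 of 24 members below 0, none with an unadjusted p under 0.05, and a median of -0.21 (-0.44 to -0.09).

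Enzymes and pumps of xenobiotic metabolism had 26 of 30 tested members above 0, 5 with an unadjusted p under 0.05 and 2 with groups apart, and a median of 0.29 (0.18 to 0.40). Abcb1a, the drug efflux pump of the apical membrane, was at 506, 533, 621 and 506 FPKM in HMLS and 199, 279.6, 484, 358 and 324 FPKM in DSS. Every HMLS library lay above every DSS library, and the CON mean was 287 ± 63.3 FPKM (SD, n = 8). Abcb1a had a log2 difference of 0.77 ± 0.306 (SE; 95% interval 0.12 to 1.43; 0.61 to 0.93 with 1 library left out). Ces1d, a carboxylesterase with close paralogs among which reads may be split, was at 95.8, 108, 115 and 89.8 FPKM in HMLS and 49.5, 74.4, 85.7, 59.4 and 61.9 FPKM in DSS, again without overlap (log2 difference 0.64 ± 0.215, SE). Cyp3a13, a cytochrome P450 of drug oxidation, was at 42.2, 64.9, 64.2 and 71.6 FPKM in HMLS and 23.1, 41.3, 36.1, 43.01 and 49.7 FPKM in DSS, with HMLS replicate 3 inside the DSS range. Cyp2e1, the cytochrome P450 that oxidises ethanol, was at 10.8, 91.4, 40.7 and 7.01 FPKM in HMLS and 5.95, 3.66, 3.86, 12.6 and 2.296 FPKM in DSS. HMLS replicates 6 and 7 stood far above the rest, and the log2 difference of 2.06 ± 0.715 (SE; 95% interval 0.53 to 3.59) was 1.43 without HMLS replicate 6.

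**Figure D5:**
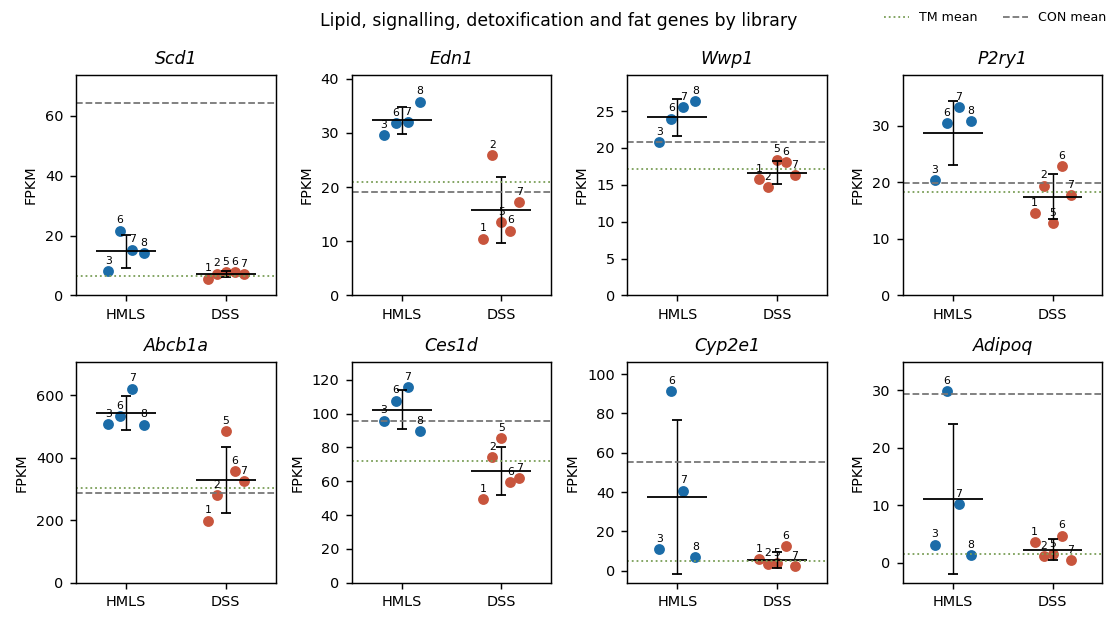
FPKM of 8 genes in each HMLS library (blue) and DSS library (red), with replicate numbers, the group mean (bar) and SD (whiskers). Dotted and dashed lines are the TM and CON means, and for Abcb1a the 4 HMLS libraries lie at 506 to 621 FPKM against 199 to 484 FPKM in DSS.

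White adipocyte markers were highest in the HMLS libraries that were highest for Cyp2e1. All 13 tested white adipocyte markers of 16 were above 0, 1 with an unadjusted p under 0.05, with a median of 0.69 (0.29 to 0.99, lowest without HMLS replicate 6). Their summed level was 108 to 669.6 FPKM in HMLS and 99.7 to 206 FPKM in DSS, against 149 to 1555 FPKM in CON. Adipoq, a hormone made by adipocytes, was at 3.14, 29.8, 10.2 and 1.35 FPKM in HMLS and 3.53, 1.08, 1.44, 4.69 and 0.435 FPKM in DSS, so HMLS replicates 6 and 7 were highest. Car3, a cytosolic carbonic anhydrase of adipocytes, was at 5.02, 26.8, 66.3 and 8.39 FPKM in HMLS and 15.97, 4.03, 3.56, 19.2 and 1.01 FPKM in DSS, with the same pair highest. With 1 library left out the log2 difference ran from 0.75 to 1.98 for Adipoq and from 0.75 to 1.91 for Car3. The fatty acid carrier Cd36 was at 8.66, 19.1, 12.3 and 5.01 FPKM in HMLS and 9.77, 3.097, 6.41, 4.85 and 7.23 FPKM in DSS. Lep, Aqp7 and Adrb3 did not pass the filter on low values. Smooth muscle markers were above 0 in 10 of 11 tested members, none with an unadjusted p under 0.05, with a median of 0.42 (0.11 to 0.78) and a summed level of 1495 to 2709 FPKM in HMLS and 657 to 2421 FPKM in DSS. The part of fat or muscle cells in the levels of Cyp2e1, Scd1, Gpam and the fatty acid oxidation genes was not tested.

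Outside the lists described so far, the genes with the smallest p had varied functions. Wwp1, a ubiquitin ligase of the NEDD4 family at chr4:19608296-19709004, was at 20.7, 23.96, 25.5 and 26.4 FPKM in HMLS and 15.8, 14.7, 18.4, 18.1 and 16.3 FPKM in DSS. Edn1, the vasoconstrictor peptide endothelin 1, was at 29.7, 31.8, 32.1 and 35.8 FPKM in HMLS and 10.5, 25.9, 13.5, 11.95 and 17.2 FPKM in DSS. In both genes all HMLS libraries lay above all DSS libraries. On the log2 scale the difference was 0.51 ± 0.105 for Wwp1 (SE; 95% interval 0.28 to 0.73; 0.47 to 0.58 with 1 library left out) and 1.05 ± 0.259 for Edn1 (SE; 95% interval 0.50 to 1.61; 0.93 to 1.24 with 1 library left out). P2ry1, a receptor for extracellular ADP, was at 20.3, 30.4, 33.3 and 30.8 FPKM in HMLS and 14.5, 19.4, 12.8, 22.9 and 17.7 FPKM in DSS, with HMLS replicate 3 inside the DSS range. Cox8b, a cytochrome oxidase subunit of muscle and brown fat, was at 4.61, 3.07, 2.62 and 5.93 FPKM in HMLS and 2.66, 0.878, 0.706, 1.83 and 0.927 FPKM in DSS, so that only DSS replicate 1 lay in the HMLS range. It belongs to the list of brown and beige adipocyte markers, of which 3 were tested. All 3 were above 0, 1 with an unadjusted p under 0.05, with a median of 0.46 (-0.03 to 0.74). The part of fat cells in the level of Cox8b was not tested. Trappc6b, a subunit of the vesicle tethering complex TRAPP, Zswim7, a partner in homologous recombination, and the zinc finger gene Zfp942 also had groups apart, with log2 differences of 0.52 ± 0.131, 0.50 ± 0.129 and 0.60 ± 0.159 (SE). The same held for the myelin protein gene Pmp22 (0.63 ± 0.287), the alanine transaminase Gpt2 (0.59 ± 0.2405) and Zfp280c (0.65 ± 0.178).

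On the lower side, C2cd4b, a nuclear protein gene induced by cytokines in endothelium, was at 1.68, 0.506, 0.487 and 4.19 FPKM in HMLS and 9.42, 24.97, 3.31, 5.94 and 8.89 FPKM in DSS. HMLS replicate 8 lay above DSS replicate 5, and the log2 difference was -2.02 ± 0.514 (SE; 95% interval -3.11 to -0.92; -2.40 to -1.66 with 1 library left out). Trim27, a ubiquitin ligase, was at 12.3, 12.6, 14.9 and 12.7 FPKM in HMLS and 18.9, 16.5, 21.1, 16.5 and 20.2 FPKM in DSS. Fam3a, of a family of secreted proteins, was at 12.2, 11.8, 12.2 and 11.7 FPKM in HMLS and 17.4, 16.2, 16.1, 15.01 and 15.04 FPKM in DSS, a log2 difference of -0.39 ± 0.104 (SE; -0.41 to -0.36 with 1 library left out). Slc37a1, a glucose 6-phosphate carrier, was at 67.8, 68.9, 63.99 and 68.3 FPKM in HMLS and 103, 109, 77.6, 85.7 and 104 FPKM in DSS. In these last 3 genes every HMLS library lay below every DSS library, as in Tnfrsf23, a decoy receptor for TRAIL in mice (-0.86 ± 0.225, SE), Tmsb10, an actin monomer binding peptide (-0.75 ± 0.225, SE), and Igsf23 (-0.77 ± 0.328, SE). The histone gene Hist1h2ak was at 9.19, 6.82, 17.4 and 15.5 FPKM in HMLS and 116, 29.8, 19.2, 32.6 and 21.99 FPKM in DSS. Hist1h2ad, another gene of that cluster, was at 0.514, 1.86, 2.59 and 1.87 FPKM in HMLS and 8.95, 3.52, 3.72, 6.72 and 2.61 FPKM in DSS. In both genes all HMLS libraries lay below all DSS libraries, but their values are uncertain, since near-identical histone copies share reads.

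Redox enzymes, clock genes and stress programmes gave no list with more than a few low p values. Of 27 glutathione and thioredoxin enzymes 16 were above 0 and 11 below, with a median of 0.07 (-0.02 to 0.10). The epithelial glutathione peroxidase Gpx2 was at 54.5, 49.6, 37.2 and 70.1 FPKM in HMLS and 127, 97.9, 59.1, 113 and 109 FPKM in DSS, with only DSS replicate 5 in the HMLS range and a log2 difference of -0.92 ± 0.374 (SE). Ggt1, which degrades extracellular glutathione, gave -0.83 ± 0.243 (SE), while Gclc, the rate-limiting enzyme of glutathione synthesis, gave 0.58 ± 0.283 (SE; 95% interval -0.02 to 1.19; 0.38 to 0.80 with 1 library left out). Of 18 circadian clock genes 14 were above 0 and 4 below, with a median of 0.21 (0.08 to 0.41), and the repressor Bhlhe40, the 1 member with an unadjusted p under 0.05, was at 35.7, 28.8, 41.9 and 45.7 FPKM in HMLS and 33.1, 56.6, 78.9, 51.9 and 49.6 FPKM in DSS. Summed over the list, clock genes were at 410, 250, 245 and 412 FPKM in HMLS and 198, 267, 560, 261 and 322 FPKM in DSS. DSS replicate 5 and HMLS replicates 3 and 8 were thus the highest libraries. No hour of sampling is in the labels. Genes of the unfolded protein response had 17 of 21 members below 0 (median -0.12, -0.26 to -0.07), interferon-induced genes 18 of 24 (median -0.16, -0.50 to 0.12) and genes of regenerating epithelium 16 of 24 (median -0.14, -0.47 to 0.02, above 0 without DSS replicate 7), each list without an unadjusted p under 0.05. Collagens and other matrix genes had 19 of 27 below 0 and a median of -0.34 (-0.65 to -0.17), again with no unadjusted p under 0.05. Their summed level averaged 434 FPKM in HMLS, 505 FPKM in DSS and 739 FPKM in CON. Col1a2, a chain of type I collagen, was at 17.97, 18.4, 19.1 and 13.2 FPKM in HMLS and 38.7, 19.8, 22.6, 32.1 and 22.3 FPKM in DSS, with all HMLS libraries below all DSS libraries and a log2 difference of -0.60 ± 0.359 (SE; 95% interval -1.37 to 0.17).

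Set against TM, the other deep sea water given with DSS, HMLS also gave no called gene. With limma 0 of 13341 genes (0%) had an adjusted p under 0.05, the smallest being 0.278, and 1260 had an unadjusted p under 0.05 (9.44%). The lysozyme Lyz2 of macrophages was at 33.9 ± 14.4 FPKM in HMLS and 81.6 ± 22.5 FPKM in TM (SD, n = 4 and 5), a log2 difference of -1.28 ± 0.248 (SE). C1qa was at 10.3 ± 6.596 FPKM in HMLS and 28.1 ± 4.01 FPKM in TM (SD), a log2 difference of -1.53 ± 0.301 (SE), and the adhesion receptor Vcam1 gave -1.34 ± 0.265 (SE). Scd1 stood on the other side, at 14.8 ± 5.51 FPKM in HMLS and 6.65 ± 0.699 FPKM in TM (SD), a log2 difference of 0.98 ± 0.198 (SE). Without HMLS replicate 3, 3 genes were called, namely C1qa (-1.88, adjusted p = 0.0153), Lyz2 (-1.53, adjusted p = 0.0341) and Scd1 (1.22, adjusted p = 0.0153), by limma. Nos2 averaged 1.22 ± 0.446 FPKM in HMLS and 10.7 ± 9.89 FPKM in TM (SD), a log2 difference of -2.11 ± 0.572 (SE), and Duox2 33.3 ± 9.600 FPKM in HMLS and 86.1 ± 33.04 FPKM in TM (SD), a log2 difference of -1.32 ± 0.406 (SE). Reg3b gave -0.40 ± 0.408 (SE) in the same contrast. Median differences of HMLS minus TM were -1.07 for MHC class II genes, -0.79 for macrophage markers, -0.67 for oxidases and 0.40 for xenobiotic metabolism. They were 0.83 for white adipocyte markers, -0.79 for B cell markers, -0.67 for antimicrobial proteins and -0.67 for matrix genes. Other lists lay near the TM level, with 0.03 for fatty acid oxidation and -0.03 for immediate early genes. Cholesterol genes gave 0.08, and genes of glycolysis and low oxygen -0.13. The summed MHC class II genes were at 244 to 394 FPKM in HMLS. In TM they were at 810 FPKM in replicate 8 and at 306 to 457 FPKM in the other libraries. No TM library was left out in turn, so the weight of TM replicate 8 in these medians was not tested.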

How the data were processed

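Colon RNA of 22 libraries was sequenced with a stranded total RNA kit, per the labels. The authors deposited one table of 23997 genes, read here as FPKM because the submitters' processing notes name Cufflinks 2.2.0 (with bcl2fastq 2.20, Bowtie, TopHat2 2.0.13 and build mm10, without settings); the table names no unit. For each library the authors deposited a read count, a mapped count and the percent mapped. The reads behind each gene are not given in the sources used here, so precision rests on the spread between libraries, and no count test was run. In all, 2338 genes were at 0 in every library, and 27 names had the form of dates and were kept.

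Genes with at least 1 FPKM in at least 4 of the 14 HMLS, TM and DSS libraries were fitted together as log2(FPKM + 1) with limma 3.58.1 (trend and robust) in R 4.3.3, after the fit was tested on simulated data. The pseudocount of 1 understates differences near 1 FPKM. Adjusted p-values are Benjamini-Hochberg over all genes tested. Library measures were compared by exact permutation tests. Genes were named from the 8 smallest p in each direction, the 8 largest differences in each direction among genes with groups apart whose higher mean reached 2 FPKM, the 4 lowest p of each of 45 lists, and a fixed panel, without small RNAs, pseudogenes, predicted genes or segments of antigen receptors. Vcam1 and Lyz2 were named after their values in HMLS against TM were seen. The members and lists were chosen with earlier results of these data known. Positions and promoter windows are from RefSeq on GRCm38.p6, and all 198 named genes were matched. Alternatives were other samples in the fit, pseudocount, filters, scalings, variance model, the share of mapped reads as covariate, a replicate block and each library left out.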

Additional observations from a re-analysis of the deposited data

Results flagged for a closer look

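In 226 sets of 4 or 5 libraries checked, 13 held 1 library far from the others by Dixon's criterion, 6 in HMLS and 7 in DSS, and chance flags about 1 in 20. In HMLS, replicate 8 was apart for Ccl2 (0.519 FPKM, the others at 0), Tff3 (849.6 FPKM, the others 1164 to 1229), Car9 (19.98 FPKM, the others 29.6 to 31.6) and Col1a2 (13.2 FPKM, the others 17.97 to 19.1). Replicate 6 was apart for Gpam (24.6 FPKM, the others 15.5 to 16.7) and replicate 7 for Trim27 (14.9 FPKM, the others 12.3 to 12.7). In DSS, replicate 7 was apart for Il1b (9.17 FPKM, the others 0.611 to 1.48) and Gpt2 (5.55 FPKM, the others 9.20 to 10.96), and replicate 5 for Slc16a3 (1.55 FPKM, the others 7.34 to 10.8) and H2-Ab1 (11.1 FPKM, the others 22.8 to 29.4). Replicate 1 was apart for the adipocyte hormone Retn (7.13 FPKM, the others 1.28 to 2.28) and for Hist1h2ak (115.9 FPKM, the others 19.2 to 32.6), and replicate 6 for the Wnt target Axin2 (5.43 FPKM, the others 1.18 to 1.65).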

How the results depend on the processing

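No gene passed between HMLS and DSS under any of the 10 other settings, and with 1 library left out 0 to 1 passed (Scd1, without HMLS replicate 3); against TM it was 0 to 3. Genes with an unadjusted p under 0.05 numbered 449 with a replicate block (174 higher in HMLS), against 740 without it. Numbers 6 and 7 occur in both groups, their deviations from the group means correlated at 0.32 and -0.33, and the numbers were not taken as pairs. Numbers 1 and 2 occur in DSS only among the fitted groups, so the block gives DSS replicates 1 and 2 no weight in the difference. Genes with such a p that were higher in HMLS numbered 255 with HMLS and DSS libraries only and 625 with all 4 groups in the fit. Genes with such a p that were lower numbered 558 without a filter and 570 with the share of mapped reads as covariate. With 1 library left out the counts were 436 (without HMLS replicate 8) to 1431 (without DSS replicate 5), 194 to 767 higher (without the same libraries) and 237 (without HMLS replicate 7) to 664 lower (without DSS replicate 5). Genes with groups apart were 219 (without DSS replicate 2) to 682 (without HMLS replicate 3), 105 (without DSS replicate 1) to 432 higher (without HMLS replicate 3) and 111 (without DSS replicate 2) to 326 lower (without DSS replicate 5). Leaving a library out cannot make separate groups overlap. Apart from genes that enter or leave the filter, these counts could therefore only rise. Of the values of single named genes under other settings, 1066 kept their direction and 8 did not. These were Lcn2 (0.16), S100a8 (0.42) and Il1b (0.33) with the covariate, and Gcg (0.19), Insl5 (0.30), Aqp8 (0.48), Scnn1b (0.048) and Mt1 (-0.32) with the replicate block, in which DSS replicates 1 and 2 carry no weight. The cause of these changes of direction was not tested. With 1 library left out, S100a8 ran from -0.46 to 0.52, Il1b from -0.47 to 0.29, Aqp8 from -1.44 to 0.35 and Scnn1b from -0.31 to 0.23. With 4 against 5 libraries and spreads this wide, differences such as that of Duoxa2 (95% interval -2.54 to 0.06) were not resolved.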
